A study of Mus musculus with 45 samples.

Results

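Of 11723 coding genes that could pass the rule, 297 stood higher or lower in kidney tubules of mice that had lost both Pkd1 and Kif3a than in tubules of both other genotypes, in males and in females alike. Of these members, 199 were higher and 98 were lower in the double knockout. They were chosen on the mean TPM of each group, a count scaled by gene length and then by library: at least 1 group mean of at least 2 TPM in each sex, and log2((mean of the double knockout + 0.1)/(mean of the other group + 0.1)) of at least 0.35, or at most -0.35, against each of the other genotypes in each sex with 1 sign throughout. Genes within 5 Mb of Kif3a, at chr11:48567379-58601967 of GRCm38.p6, were left out, since the floxed Kif3a allele brings its own flanking sequence. Because these values chose the members, the levels of members in the double knockout are a description, with no test.

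The 45 mice were 7 weeks old (postnatal day 49) and had received doxycycline by mouth from postnatal day 28 to 42. Noncystic mice were Pkd1fl/+; R26Rpl10a; Pax8rtTA; TetOCre (8 males, 7 females), Pkd1KO mice were Pkd1fl/fl with the same 3 transgenes (7 males, 8 females), and Pkd1KO+ciliaKO mice were Pkd1fl/fl; Kif3afl/fl with those transgenes (9 males, 6 females). All were hemizygous for R26Rpl10a, Pax8rtTA and TetOCre, so that doxycycline switched on Cre in Pax8-expressing renal tubule cells, including in the noncystic mice, which kept an intact Pkd1 allele. Cre also switched on an L10a-EGFP ribosomal protein, and RNA bound to tagged ribosomes was pulled down from whole kidney and sequenced (TRAP RNASeq) before cysts had formed. Kif3afl/fl was carried by the Pkd1KO+ciliaKO mice alone, so loss of Kif3a and any other sequence inherited with that line cannot be told apart in these groups.

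Kif3a encodes a motor subunit of the kinesin that carries intraflagellar transport cargo, and tubule cells that lack it lose their primary cilium. Pkd1 encodes polycystin-1, a large membrane protein of that cilium whose loss leads to tubule cysts, and cyst growth after Pkd1 loss is known to depend on the presence of cilia. No group here lost Kif3a alone, so effects of losing Kif3a and effects that need the loss of both genes cannot be told apart.

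Kif3a was used to check the labels. It stood at 18.1 ± 3.54 TPM (SD, n = 8) in noncystic males and 19.7 ± 3.19 (n = 7) in Pkd1KO males, against 5.08 ± 0.87 (n = 9) in Pkd1KO+ciliaKO males. The female Pkd1KO mice lay at 24.3 ± 2.20 TPM (n = 8). Among the other females, 1 library of each label went against it: the library labelled noncystic female replicate 5 held 6.20 TPM of Kif3a, and the library labelled Pkd1KO+ciliaKO female replicate 6 held 20.1 TPM. Without those 2 libraries the female means were 21.9 ± 0.66 TPM in 6 noncystic mice and 7.46 ± 1.30 TPM in 5 Pkd1KO+ciliaKO mice, and with them 19.6 ± 5.95 and 9.57 ± 5.30 TPM. Both were kept under their labels. Some results are also given without them, and female values hold them unless stated. Pkd1, of which the floxed exons alone are removed, stood at 9.45 ± 3.42, 6.74 ± 1.70 and 9.28 ± 3.93 TPM in noncystic, Pkd1KO and Pkd1KO+ciliaKO males and at 9.81 ± 1.14, 8.56 ± 2.19 and 11.3 ± 1.32 TPM in the females, so its level over the whole gene does not check the Pkd1 labels.

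A second pair of libraries stood apart, Pkd1KO+ciliaKO males 6 and 8. Their mouse numbers were lower than those of the 7 other Pkd1KO+ciliaKO males, and the number of noncystic male 3 lay between them. What these numbers track is not given in the labels. In 163 of the 297 members males 6 and 8 both lay beyond the 7 other Pkd1KO+ciliaKO males. Without males 6 and 8, 163 members were found again (91 higher, 72 lower) while 134 were lost, 108 of them higher. Slc22a7, an organic anion transporter of the proximal tubule, stood at 6.18 and 13.4 TPM in males 6 and 8 and at 85.5 to 267 TPM in the other 7. The summed level of 18 proximal tubule markers, led by the androgen-dependent Kap (86.0% of the sum in males), was 21712 and 24706 TPM in males 6 and 8, against 56770 to 95557 in the other 7 Pkd1KO+ciliaKO males and 44400 to 101751 in noncystic males. Over 10 thick ascending limb markers the sums were 5762 and 5527 TPM against 2892 to 4411 in the other 7, and over 10 intercalated cell markers 785 and 839 TPM against 430 to 660. In females the double knockout mean was shifted, with overlap between groups. The proximal tubule sum, 80.4% of it Kap, was 28906 ± 7867 TPM (SD, n = 6), from 17667 to 41243. It was 49574 ± 13007 in noncystic (n = 7, from 29961 to 69312) and 51338 ± 12863 in Pkd1KO females (n = 8, from 31239 to 70489). Without the library labelled Pkd1KO+ciliaKO female 6 the highest double knockout sum was 33364 TPM. The library labelled noncystic female 5 held 51018 TPM. The thick ascending limb sum was 6013 ± 743 TPM (from 5035 to 7056) against 4973 ± 468 (from 4339 to 5597) and 4559 ± 630 (from 3598 to 5510). No proximal tubule marker was missing from the table, and in ribosome-bound RNA of whole kidney fewer tagged cells of a type and less RNA per cell cannot be told apart. The part of these markers in the members was not tested.

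Promoters of 4 members are shown because the block with most members lay on distal chromosome 4, where 3 of them lie, and because Rfx factors, which read the X-box, switch on many cilium genes. Sequences are RefSeq windows on GRCm38.p6 from 250 bases before to 50 after a listed start, read 5′ to 3′ on the gene's strand, with motif matches in capitals. The first is Ubxn10, whose protein links the VCP ATPase to cilia (chr4:138725216-138725515, minus strand, the first of 4 listed starts; capitals mark from left to right a Tead motif, an antioxidant response element and an X-box).
Ubxn10: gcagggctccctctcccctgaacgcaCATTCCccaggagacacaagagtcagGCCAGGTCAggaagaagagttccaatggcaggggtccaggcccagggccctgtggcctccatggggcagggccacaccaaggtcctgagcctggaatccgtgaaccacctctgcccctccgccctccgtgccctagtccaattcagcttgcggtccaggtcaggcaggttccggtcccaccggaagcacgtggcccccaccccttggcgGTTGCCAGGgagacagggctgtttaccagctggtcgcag
Dvl1 encodes a Dishevelled protein of Wnt signalling (chr4:155847152-155847451, plus strand; capitals mark an X-box).
Dvl1: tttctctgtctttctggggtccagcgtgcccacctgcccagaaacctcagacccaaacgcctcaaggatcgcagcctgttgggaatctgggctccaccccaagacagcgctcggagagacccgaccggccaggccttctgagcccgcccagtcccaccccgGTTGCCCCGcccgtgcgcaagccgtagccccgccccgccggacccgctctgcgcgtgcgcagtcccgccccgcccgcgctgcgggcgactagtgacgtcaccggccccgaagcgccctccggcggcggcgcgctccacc
Lrrc28, a leucine-rich repeat protein, is lower in the double knockout (chr7:67645187-67645486, minus strand; capitals mark an X-box).
Lrrc28: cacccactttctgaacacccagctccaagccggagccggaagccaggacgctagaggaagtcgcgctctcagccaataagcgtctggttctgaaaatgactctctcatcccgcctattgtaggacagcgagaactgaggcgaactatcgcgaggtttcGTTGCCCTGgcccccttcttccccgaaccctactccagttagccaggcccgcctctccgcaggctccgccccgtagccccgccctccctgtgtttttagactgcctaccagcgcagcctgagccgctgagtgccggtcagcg
Sh3bgrl3, a thioredoxin-like protein, lies beside Cep85 on chromosome 4 and is lower as well (chr4:134128684-134128983, minus strand; capitals mark an antioxidant response element).
Sh3bgrl3: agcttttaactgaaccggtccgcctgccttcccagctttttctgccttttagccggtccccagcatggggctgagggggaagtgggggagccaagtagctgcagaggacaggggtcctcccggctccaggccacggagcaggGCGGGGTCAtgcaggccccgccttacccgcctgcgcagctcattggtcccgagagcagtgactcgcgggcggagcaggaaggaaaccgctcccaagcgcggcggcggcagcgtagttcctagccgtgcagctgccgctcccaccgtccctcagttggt

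None of the 5 motifs searched on both strands was carried by more than 17.0% of the members' promoters. Of 27025 mouse promoters, 5.16% held the X-box (GTTGCCNNG), as did 6 of 141 matched promoters of higher members (4.26%) and 4 of 70 of lower members (5.71%). The higher members with it were Slc38a2, Dvl1, Fbxo34, Tspyl4, Ubxn10 and Cxcr4. An antioxidant response element (TGACNNNGC) was in 12.5% of all promoters, in 18 of higher and 8 of lower members, a sterol response element (TCACNCCAC) in 1.22% of all and in 3 and 1, and a Tead motif (GGAATG) in 14.6% of all, in 24 of higher members (17.0%) and 5 of lower members (7.14%). The Gli motif (GACCACCCA), in 0.244% of all promoters, was in none of the members' windows. No motif's letters contain another's, and a match is a description of the window only.

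The most separated members formed a small set in which the groups did not overlap. In males, all 9 Pkd1KO+ciliaKO mice lay beyond all 15 mice of the other genotypes for 24 members, where 35 of 11723 genes did so (0.299%). In females the count was 14 of 64 genes (0.546%), and without the 2 libraries that went against their labels 76 of 223 genes (1.9%). Genes separated in both sexes without those libraries numbered 21 (0.179%), and 17 of them were members: Coch, Padi2, Fam213b, Rnase1 and Ftl1-ps1 higher, and Slc5a2, Pttg1, Cep85, Vwa1, Arhgef19, Hmgn2, Sfn, Lrrc28, Anxa8, Abcc6, Nlrc4 and Ankrd65 lower. The remaining 4 were Rab4a, Dtd2, Rbfa and Txnl4a. Separation used the same contrast as the rule, so these shares are given side by side and nothing is read from them. For all 17 members the library labelled noncystic female 5 lay nearer the Pkd1KO+ciliaKO females, and for 16 of 17 the library labelled Pkd1KO+ciliaKO female 6 lay nearer the other genotypes.

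Slc5a2, the SGLT2 cotransporter that reclaims most filtered glucose in the early proximal tubule (chr7:128265657-128272430), showed the widest gap among well-expressed members. Lowest, median and highest TPM were 54.4, 81.7 and 97.8 in noncystic males, 20.9, 69.8 and 76.7 in Pkd1KO males and 2.81, 3.40 and 6.14 in Pkd1KO+ciliaKO males. In females they were 7.91, 90.8 and 106 in noncystic, 61.9, 81.9 and 94.6 in Pkd1KO and 2.56, 5.15 and 80.7 in Pkd1KO+ciliaKO mice. The male groups were apart, and the female groups overlapped only through the 7.91 of the library labelled noncystic female 5 and the 80.7 of the library labelled Pkd1KO+ciliaKO female 6. On the log2(TPM + 0.1) scale the changes of the means were -4.33 and -3.996 in males against noncystic and Pkd1KO, and -2.20 and -2.21 in females, or -4.23 and -4.04 without the 2 libraries. BC017158 overlaps Slc5a2 on the other strand.

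Pttg1 encodes securin, the inhibitor of separase in mitosis, and lies on chromosome 11 at 10.1 Mb from Kif3a, outside the excluded window. Its lowest, median and highest TPM were 28.9, 42.1 and 55.9 in noncystic males, 23.6, 45.8 and 54.0 in Pkd1KO males, and 6.10, 7.91 and 9.37 in Pkd1KO+ciliaKO males. The female values ran 10.5, 68.7 and 75.5 in noncystic, 38.1, 62.5 and 78.1 in Pkd1KO, and 7.03, 9.18 and 57.6 in Pkd1KO+ciliaKO mice. Again the groups overlapped in females through the 2 libraries alone. The cell cycle list does not hold Pttg1, and none of its 26 eligible genes was a member. At the share over all eligible genes, 2.53%, a list of this size would hold few or none.

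Cep85, a centrosome protein encoded at chr4:134129858-134187112, ran from 27.5 over a median of 41.1 to 78.9 TPM in noncystic males, from 22.9 over 41.8 to 88.9 in Pkd1KO males and from 8.69 over 12.7 to 16.0 in Pkd1KO+ciliaKO males. In females the same 3 values were 11.95, 25.9 and 59.5, then 26.3, 34.2 and 54.4, then 8.40, 11.4 and 20.3. Every Pkd1KO+ciliaKO male was thus below every other male. Vwa1, an extracellular matrix protein encoded further out on the same chromosome, was lower too: male medians were 92.7, 67.7 and 11.2 TPM and female medians 35.3, 42.4 and 14.5 TPM in noncystic, Pkd1KO and Pkd1KO+ciliaKO mice. Ankrd65, an ankyrin repeat protein that neighbours Vwa1, had medians of 13.1, 9.05 and 0.0472 TPM in males and 2.78, 1.03 and 0.0673 TPM in females, and was under 0.1 TPM in 6 of 9 Pkd1KO+ciliaKO males and 5 of 6 females and in no mouse of the other genotypes.

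Another 7 separated members were lower. Arhgef19, a guanine nucleotide exchange factor for small GTPases, had male medians of 26.5, 28.5 and 8.77 TPM in noncystic, Pkd1KO and Pkd1KO+ciliaKO mice. Hmgn2, a nucleosome-binding protein with many processed copies, whose reads may be shared with them, had male medians of 59.3, 50.9 and 30.4 TPM. Sfn, the 14-3-3 sigma adaptor, had 12.4, 14.4 and 4.08 TPM. In each the highest Pkd1KO+ciliaKO male stayed below the lowest male of the other genotypes: 13.9 against 18.2 TPM for Arhgef19, 35.7 against 37.6 TPM for Hmgn2 and 5.75 against 7.33 TPM for Sfn. Lrrc28 showed 16.1, 19.5 and 8.83 TPM in males and 12.4, 17.9 and 7.94 TPM in females. Anxa8, an annexin, Abcc6, an efflux transporter linked to ectopic calcification, and Nlrc4, an inflammasome sensor, were low throughout, with male medians of 0.711, 0.648 and 0.229 TPM in Pkd1KO+ciliaKO mice against 2.89, 2.44 and 4.96 TPM in noncystic mice.

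Coch, which encodes the secreted protein cochlin, led the higher members (chr12:51593341-51605771). Its lowest, median and highest TPM were 0.553, 1.26 and 2.98 in noncystic males, 0.846, 1.31 and 3.70 in Pkd1KO males and 4.68, 6.57 and 8.97 in Pkd1KO+ciliaKO males. Female values were 0.970, 2.23 and 6.87, then 0.984, 2.14 and 3.72, then 3.53, 10.3 and 14.6. The log2 changes of the means were 2.05, 2.00, 1.96 and 2.10 over the 4 comparisons, and Coch stayed a member whichever mouse was left out. Fam213b, a prostaglandin F synthase, had male medians of 34.4, 26.3 and 235 TPM in noncystic, Pkd1KO and Pkd1KO+ciliaKO mice and female medians of 56.8, 55.0 and 141 TPM. Padi2, which converts arginine to citrulline in proteins, had male medians of 1.51, 1.72 and 16.0 TPM and female medians of 10.4, 14.1 and 25.7 TPM. Both genes lie on distal chromosome 4, as do 8 of the 17 separated members. Ftl1-ps1, a copy of the ferritin light chain gene whose reads may come from its parent, had male medians of 3.65, 3.87 and 11.3 TPM, and Rnase1, a secreted ribonuclease, 0.148, 0.116 and 2.10 TPM.

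**Figure D1:**
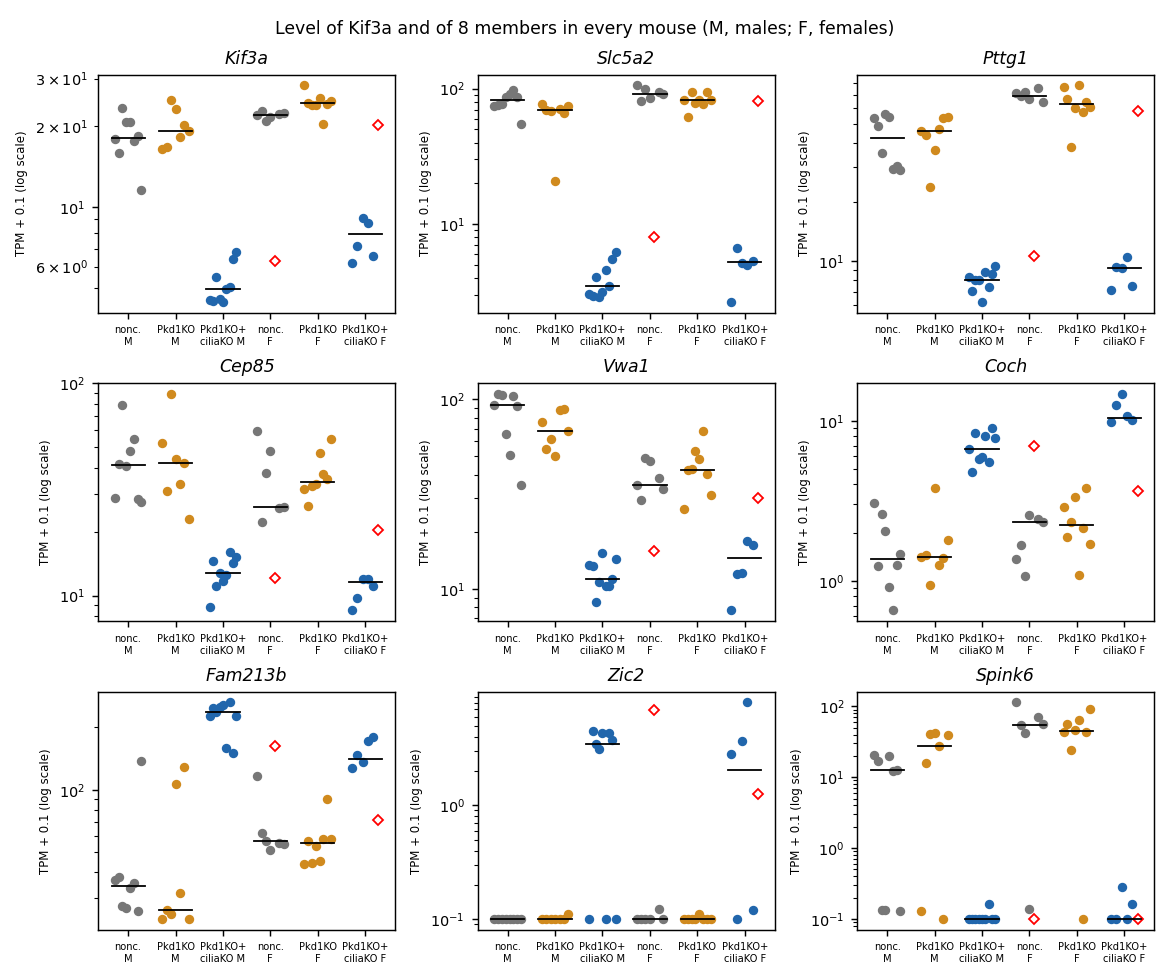
Level of Kif3a, 6 members of the separated set (Slc5a2, Pttg1, Cep85, Vwa1, Coch, Fam213b) and the on-off members Zic2 and Spink6 in each mouse, as TPM + 0.1 on a log axis, by genotype and sex; each point is 1 mouse, black lines are medians and red open diamonds mark the library labelled noncystic female 5 and the library labelled Pkd1KO+ciliaKO female 6. Slc5a2 sits between 2.81 and 6.14 TPM in Pkd1KO+ciliaKO males and between 20.9 and 97.8 TPM in the other males, and the 2 red diamonds fall on the opposite side in Kif3a, Slc5a2 and Pttg1.

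Some members were present or absent rather than graded. Spink6, a Kazal-type protease inhibitor on chromosome 18, was under 0.1 TPM in 9 of 9 Pkd1KO+ciliaKO males and 5 of 6 females, the sixth being at 0.182 TPM. Medians of the other groups were 12.4 and 27.1 TPM in noncystic and Pkd1KO males and 54.6 and 45.1 TPM in the females, but 3 of 8, 2 of 7, 2 of 7 and 1 of 8 of those mice were also under 0.1 TPM. Gm9008 on chromosome 6 behaved likewise, being under 0.1 TPM in all 15 Pkd1KO+ciliaKO mice and in 1 of 8 noncystic males, 2 of 7 Pkd1KO males, 3 of 7 noncystic females and 2 of 8 Pkd1KO females. Absence of these transcripts was thus shared by nearly all double knockouts and a minority of the others. Zic2, a zinc finger transcription factor of the developing brain, went the other way: it reached at least 0.1 TPM in 6 of 9 Pkd1KO+ciliaKO males and 4 of 6 females, up to 4.36 and 7.92 TPM. Outside those groups it did so in 1 mouse, the library labelled noncystic female 5, at 6.76 TPM.

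Further members with wide gaps split the same way within the other genotypes. Eif3j2 on chromosome 18, a copy of the translation initiation factor gene Eif3j1, had medians of 20.5, 12.3 and 2.69 TPM in males and 16.2, 22.0 and 2.90 TPM in females, while Eif3j1 itself on chromosome 2 was a higher member. Reads may be split between these near-identical copies, so neither level is certain. Wdfy1, an endosomal adaptor, ranged from 4.51 to 46.9 TPM in noncystic males and from 36.5 to 56.1 TPM in Pkd1KO+ciliaKO males. In the double knockout females it ranged only from 40.7 to 42.3 TPM, and in noncystic females from 3.36 to 37.6 TPM. Rpl29, a protein of the large ribosomal subunit with many processed copies, ranged from 127 to 620 TPM in noncystic males, from 140 to 830 TPM in Pkd1KO males and from 101 to 136 TPM in Pkd1KO+ciliaKO males. Its lowest noncystic and Pkd1KO mice thus reached the double knockout level. Rhox6, an X-linked homeobox gene, Lrmda, a melanocyte gene, and Ccl27a, a chemokine, had male medians of 1.60, 8.00 and 3.97 TPM in noncystic mice and 0.115, 1.20 and 0.430 TPM in Pkd1KO+ciliaKO mice.

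Among higher members with large changes, Pvalb, the calcium-binding protein of the early distal convoluted tubule, varied widely between double knockouts: from 9.97 over a median of 103 to 188 TPM in males and from 18.2 over 78.3 to 200 TPM in females, against medians of 26.6, 15.1, 27.0 and 25.8 TPM in noncystic males, Pkd1KO males, noncystic females and Pkd1KO females. Pvalb was the only member, and in males the only gene called, among 9 distal convoluted tubule markers. Their sum, 47.2% of it Calb1 in males, ran from 878 to 1999 TPM in Pkd1KO+ciliaKO males. It ran from 852 to 2251 TPM in noncystic and from 673 to 1118 TPM in Pkd1KO males. The median log2 over the 9 markers in males was -0.11 against noncystic and 0.33 against Pkd1KO. Ugt1a10, a glucuronosyltransferase that shares its last exons with other Ugt1a genes and so may share their reads, had male medians of 0.994, 0.727 and 5.94 TPM, with 56.5 TPM in the highest mouse. Car11, a carbonic anhydrase-related protein, had 1.45, 1.13 and 4.67 TPM in males, and Slc16a8, a lactate transporter, 0.853, 0.532 and 2.48 TPM. Mfrp, a frizzled-related membrane protein, had 1.19, 1.501 and 3.83 TPM. It overlaps the member Rnf26 on the other strand, and without stated strand information their reads cannot be told apart.

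Several immediate early genes, which respond to stimuli within minutes, were members through few mice. Nr4a1 and Arc fell within the naming rule, and Fos, Egr1, Btg2 and Dusp1 were named after their values were seen. In all 6 the highest Pkd1KO+ciliaKO male was replicate 2, at 336 TPM for Fos where the next male stood at 27.4, and at 93.6 TPM for Nr4a1 where the next stood at 9.23. Without that mouse Fos, Egr1, Nr4a1 and Btg2 were no longer members, while Arc and Dusp1 were. The mean of Fos in the 8 remaining Pkd1KO+ciliaKO males was 12.9 TPM, against 12.9 TPM in Pkd1KO and 7.13 TPM in noncystic males. Arc stayed a member whichever mouse was left out, with a mean of 13.9 TPM without male 2 against 5.64 TPM in noncystic males.

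The most abundant members differed in how far they rested on single mice. Sord, sorbitol dehydrogenase, had male medians of 1696, 1538 and 2534 TPM and female medians of 1808, 1245 and 2545 TPM, and was kept without Pkd1KO+ciliaKO males 6 and 8. Myo6, a brush border myosin, Glud1, glutamate dehydrogenase, and Acaa2, a thiolase of fatty acid oxidation, had male medians of 981, 503 and 497 TPM in Pkd1KO+ciliaKO mice and 707, 406 and 413 TPM in noncystic mice. All 3 were lost without Pkd1KO+ciliaKO males 6 and 8. Acy3, an aminoacylase, stood at male medians of 3952, 3660 and 2786 TPM, and Cndp2, a dipeptidase, at 1965, 2329 and 1745 TPM. In males 6 and 8 Cndp2 stood at 186 and 228 TPM, against 1346 to 2827 TPM in the other 7, and Acy3, Cndp2 and Ghr, the growth hormone receptor, were lost without those mice too. Calml4, a light chain of the brush border adhesion complex, did not depend on them: its lowest, median and highest TPM were 353, 403 and 486 in noncystic males, 283, 462 and 589 in Pkd1KO males and 177, 275 and 325 in Pkd1KO+ciliaKO males.

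Some cell type markers were members. The counts were 3 of 10 intercalated cell, 2 of 9 principal cell, 1 of 9 distal convoluted tubule, 1 of 10 thick ascending limb and 1 of 17 proximal tubule markers, beside 2.53% of all eligible genes. Atp6v0d2, Slc4a1 and Aqp6 of the intercalated cell, the acid-base cell of the collecting duct, were members out of 10 markers, with male medians of 53.0, 17.5 and 43.1 TPM in noncystic and 66.9, 28.5 and 73.7 TPM in Pkd1KO+ciliaKO mice. Their sum over 10 markers ran from 441 to 637 TPM in noncystic males, 354 to 498 in Pkd1KO males and 430 to 839 in Pkd1KO+ciliaKO males, with no marker missing. Aqp2, the water channel of the principal cell, had male medians of 370, 422 and 605 TPM and female medians of 571, 724 and 930 TPM, and Gata3, its transcription factor, male medians of 30.8, 26.1 and 37.0 TPM. Ptger3, a prostaglandin E2 receptor of the thick ascending limb, was higher by 0.40 to 0.55 on the log2 scale. Slc4a1 stayed a member under every check made, while Atp6v0d2, Aqp2, Gata3 and Ptger3 were lost without males 6 and 8. Pdk4, which shuts off pyruvate dehydrogenase, and Cyp4a14, a fatty acid hydroxylase, joined Acaa2 as members of the fatty acid oxidation list (3 of 19). Pdk4 had male medians of 24.7, 23.6 and 65.8 TPM, and Cyp4a14, which females express more strongly, 16.3, 16.2 and 43.6 TPM.

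A score over the members placed each mouse: the mean over the 199 higher members minus the mean over the 98 lower members of log2 CPM (counts scaled by library with TMM factors and not by gene length), centred on the noncystic mean of the sex. Pkd1KO+ciliaKO males scored 2.06 ± 0.71 (n = 9), from 1.56 to 3.34, and Pkd1KO+ciliaKO females 1.68 ± 0.59 (n = 6). The highest mouse of any other group was the library labelled noncystic female 5 at 0.99, and the lowest Pkd1KO+ciliaKO mouse was the library labelled Pkd1KO+ciliaKO female 6 at 0.65. Pkd1KO mice scored 0.01 ± 0.36 in males and -0.34 ± 0.28 in females. The score rests on the values that chose the members, so it carries no p.

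**Figure D2:**
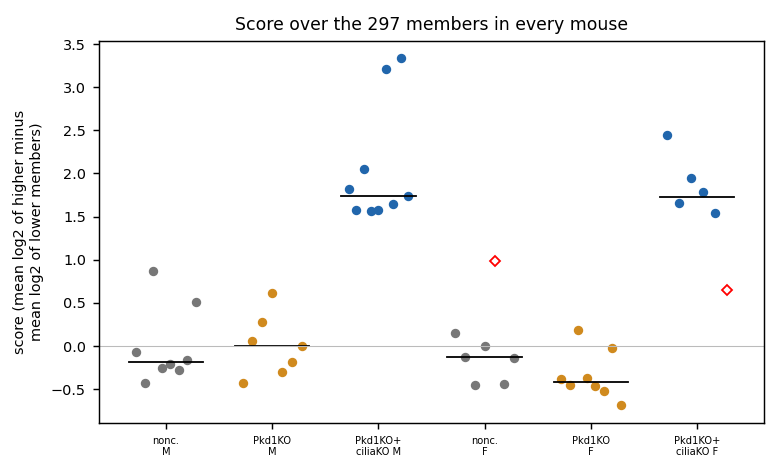
Score over the 297 members in each mouse, in log2 CPM relative to the noncystic mean of the sex, by genotype and sex; each point is 1 mouse, the black lines are medians and the red open diamonds mark the library labelled noncystic female 5 and the library labelled Pkd1KO+ciliaKO female 6. Those 2 libraries, at 0.99 and 0.65, lie between the genotypes, and males 6 and 8 lie highest.

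No gene of the fixed cilium lists was a member, where 2.53% of all eligible genes were. At that share each list on its own would hold few or none, and the lists together were not tested. None of 31 eligible genes for kinesin-2 and intraflagellar transport was a member, nor any of 13 for the BBSome, 23 for the transition zone and inversin compartment, 16 for the ciliary membrane and small GTPases, 7 for hedgehog and Glis factors, 17 for centriole and basal body and 16 for tubulins. Outside Kif3a, which lies in the excluded window, 4 of the transport genes passed edgeR's quasi-likelihood test (Benjamini-Hochberg adjusted p at most 0.05 over all coding genes) in a comparison with the double knockout. Ift27, a subunit of the transport complex, fell in all 4 comparisons, by 0.30, 0.32, 0.43 and 0.45 on the log2 scale with SE 0.07, 0.08, 0.10 and 0.08. Its adjusted p was 0.0165, 0.033, 0.036 and 0.00274 by edgeR. Kif17, the homodimeric kinesin-2 motor, rose by 1.64 ± 0.30 (SE) against Pkd1KO in males and 1.78 ± 0.22 in females. Ift46 fell in males by 0.21 and 0.29, and Ift22 fell against Pkd1KO in females by 0.19. Over the list of 33 genes the medians were -0.02, 0.02, -0.03 and -0.04, against 0.01, -0.01, 0.01 and 0.01 over all genes tested.

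Other listed genes differed from Pkd1KO mice without passing the rule. Glis2, a Gli-similar transcription factor, fell by 0.80 ± 0.06 in males and 0.99 ± 0.09 in females against Pkd1KO, Pkd2 by 0.55 ± 0.08 and 0.61 ± 0.08 and Anks3 by 0.40 ± 0.06 and 0.49 ± 0.06. In the cell cycle list 21 of 30 genes rose against noncystic males and none differed from Pkd1KO males, with a median of -0.62 there, and 9 of 19 interferon-stimulated genes rose against noncystic males. In females, with the 2 libraries kept, none and 1 of the same lists rose against noncystic mice, where 0.67% of all coding genes rose and 1.87% fell. Leaving out single females moved the members called in that fit from 62 to between 2 and 112. These counts do not compare the sexes, and a difference between them was not tested. Against noncystic males 5.63% of all coding genes rose and 3.26% fell. In fatty acid oxidation 0 of 19 rose against noncystic males, while Cpt1a and Acaa1b were among the 3 that fell, in proximal tubule Slc5a2, Slc5a12, Lrp2 and Cubn fell out of 18, and among YAP and TEAD targets Ankrd1 alone rose out of 12.

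A few members are known for cilia or centrosomes although no list held them, and these were named after their values were seen. Ubxn10, whose promoter with its X-box is shown above, had male medians of 5.19, 4.07 and 14.8 TPM in noncystic, Pkd1KO and Pkd1KO+ciliaKO mice and female medians of 4.68, 3.74 and 7.99 TPM. Efcab7, which tethers hedgehog signalling proteins near the cilium base, Kif27, a kinesin of motile cilia, and Tubgcp5, of the gamma-tubulin ring complex, were higher by 0.60 to 0.97, 0.45 to 0.71 and 0.54 to 0.62 on the log2 scale. Rsg1, a small GTPase needed to build cilia, and Ccdc114, which docks dynein arms, were lower, with male medians of 1.13 and 1.05 TPM in Pkd1KO+ciliaKO against 1.92 and 2.11 TPM in noncystic mice. Cetn4, a centrin, went from 3.67 and 2.81 to 8.22 TPM in males. Cetn4 overlaps Bbs12 on the other strand, and no mouse held more than 8.16 TPM of Efcab7, 4.51 TPM of Kif27, 3.85 TPM of Rsg1 or 3.36 TPM of Ccdc114.

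The share of eligible genes that were members differed between chromosomes. Chromosome 4 held 35 of 786 eligible genes (4.45%), chromosome 14 20 of 395 (5.06%) and chromosome 18 13 of 301 (4.32%), while chromosome 11 outside the window held 10 of 912 (1.10%) and all chromosomes together 2.53%. In all, 116 members lay within 1 Mb of another, in 38 blocks, of which 15 held at least 3 members each. Of those 15 blocks, 4 held members of 1 direction. No such count was made for eligible genes in general, which also lie in clusters, so nothing is read from the number of blocks. No member on chromosome 11 was nearer to Kif3a than Mprip, at 6.09 Mb, and none on chromosome 17 was nearer to Pkd1 than Dusp1, at 1.96 Mb. Of 12 eligible mitochondrial genes 5 were members (41.7%): mt-Nd2, mt-Co3, mt-Nd4l, mt-Nd5 and mt-Nd6. All 5 were higher, with mt-Co3 at male medians of 3.81, 3.75 and 6.29 TPM.

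Distal chromosome 4 held 4 of the blocks. At chr4:133480132-134383850, 6 of 23 eligible genes were members: Tent5b and Extl1 higher and Sfn, Hmgn2, Sh3bgrl3 and Cep85 lower. Sh3bgrl3, whose promoter is shown above, had male medians of 172, 206 and 93.1 TPM and female medians of 226, 221 and 126 TPM. At chr4:138709837-139092993, Ubxn10, Pla2g5 and Nbl1 were members out of 6, all higher. Further along, chr4:140906344-141398724 had among its members Padi2 (higher) and Rsg1, Arhgef19 and Fam131c (lower). The block nearest the telomere, chr4:154895504-156221307, held 8 of 39: Fam213b, Tnfrsf14, Mxra8, Dvl1, Cptp and Perm1 higher, and Vwa1 and Ankrd65 lower. Dvl1, the Dishevelled gene with the second promoter above, had male medians of 49.2, 50.3 and 73.1 TPM, and in females, at 62.6, 66.0 and 88.9 TPM, it was lost as a member when any of 5 mice was left out, and with TMM CPM.

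Elsewhere, chr2:121128307-122809569 held Lcmt2, Mfap1b, Eif3j1, Spg11, Sord and Sqor, all higher, out of 23 genes, and chr15:99093170-101712898 held 7 of 41, with Aqp2, Aqp6 and Nr4a1 higher and Dnajc22, Methig1, Mettl7a2 and Krt5 lower. Pairs of near-identical or overlapping copies were in several blocks (Methig1 with Mettl7a2, the histone genes Hist1h4m, Hist1h4n and Hist1h4i), and 146 of the 297 members overlapped another annotated gene, so that some of their reads are uncertain. Other blocks of at least 5 members included chr19:3958645-4943127 (among its members Aldh3b3 and Acy3 lower, Actn3 and Peli3 higher) and chr9:106368632-107581710 (Rpl29, Abhd14b and 6430571L13Rik lower, Dusp7 and Hyal1 higher). The part of inherited segments in these blocks was not tested.

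**Figure D3:**
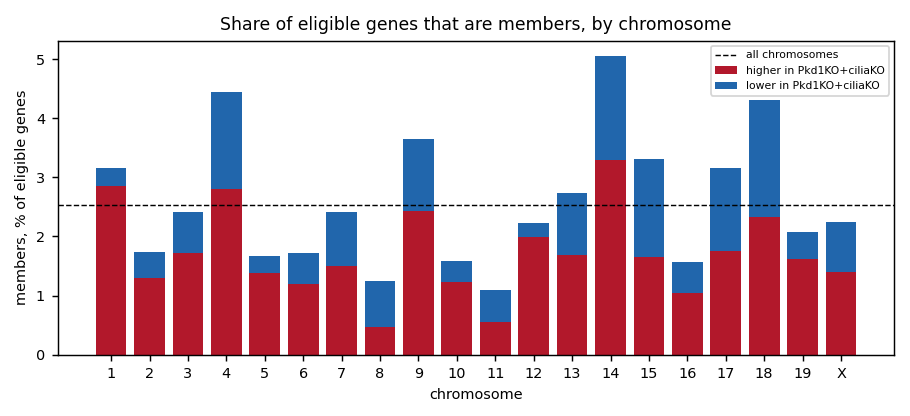
Share of eligible genes that were members on each nuclear chromosome, in percent, with higher and lower members in separate colours; the dashed line is the share over all chromosomes, 2.53%. Chromosomes 14, 4 and 18 stand highest, at 5.06%, 4.45% and 4.32%, and chromosome 11 lowest, at 1.10%.

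Neighbours of members, which the rule did not use, were examined in the comparisons with the double knockout. Of 1116 genes of any class within 50 kb of a member that overlapped none and were no members, 702 passed the count filter in males and 696 in females. In males 86 of 702 were called against noncystic (12.3%) where 6.88% of all genes were, and 51 of 702 against Pkd1KO (7.26%) where 3.32% were. In females the counts were 18 of 696 against noncystic (2.59%, all genes 1.46%) and 95 of 696 against Pkd1KO (13.6%, all genes 9.51%). Of the called neighbours, in the same order, 40, 14, 7 and 36 rose and 46, 37, 11 and 59 fell. Over all genes 948, 336, 64 and 832 rose and 626, 424, 266 and 1315 fell. Neighbours were thus called at a higher rate than all genes in each comparison, while for coding genes the gap was narrower, at 12.2% of neighbours and 8.00% of all in males against noncystic, and 12.9% and 10.9% in females against Pkd1KO. Called in all 4 comparisons were Ift27, which lies 17.0 kb from Pvalb, Kdf1, 31.0 kb from Tent5b, Samd11, 25.7 kb from Perm1, and the pseudogene Gm3219 beside Glud1. Samd11 rose by 1.93, 2.14, 1.86 and 2.33 on the log2 scale and Kdf1 fell by 0.44, 0.46, 0.34 and 0.27. Ift27 and Gm3219 fell as well, although Pvalb, Tent5b, Perm1 and Glud1 were all higher members. Leaving out single females moved the count against noncystic females from 18 to between 1 and 39, so that value rests on few mice.

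The same mice allowed contrasts that the rule did not use, on control values that it did use. Against noncystic mice, Pkd1KO mice of the same sex were compared by edgeR, which called 5 of 297 members in males (1.68%), where 6.3% of all genes were called, and 8 in females (2.69%), where 3.34% were. The rule did not use this contrast, though both groups served as its controls. Members had to lie beyond both, so these shares are not independent of how members were chosen and nothing is read from them. Pla2g5, a secreted phospholipase beside Ubxn10, was lower in Pkd1KO females by 1.13 ± 0.11 on the log2 scale (SE, adjusted p = 1.67e-05, edgeR), with all 8 Pkd1KO mice at 7.58 to 11.6 TPM and all 7 noncystic mice at 14.2 to 24.98 TPM. In Pkd1KO+ciliaKO females it stood at 16.6 to 30.5 TPM. Defb42, a beta-defensin, fell in both sexes, by 1.43 ± 0.27 in males and 1.66 ± 0.25 in females (adjusted p = 0.00409 and 0.00122, edgeR), while its double knockout medians were 2.41 and 3.72 TPM against 2.28 and 2.68 in noncystic mice. Btc, the growth factor betacellulin, rose in Pkd1KO males by 0.56 ± 0.12 and females by 0.60 ± 0.13, and stood higher again in the double knockout, at medians of 7.22 and 10.02 TPM.

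Further called members in females were Lrrc28, Ppp1r3e and Ifi44l, higher in Pkd1KO by 0.49 ± 0.10, 0.99 ± 0.22 and 1.67 ± 0.41, and Hesx1, lower by 0.96 ± 0.24, and in males 2900011O08Rik and Gdpd3, higher by 1.76 ± 0.42 and 0.39 ± 0.10, and Perm1, lower by 0.76 ± 0.20. Lrrc28 thus stood above noncystic females in Pkd1KO and below them in the double knockout (medians of 12.4, 17.9 and 7.94 TPM). Gdpd3, a lysophospholipase, showed the same order in males, with medians of 10.2, 14.0 and 6.503 TPM. Zic2 was also called in females, but it was under 0.1 TPM in 6 of 7 noncystic and all 8 Pkd1KO mice, and its adjusted p rose to as much as 0.97 over the alternatives, so this call rests on the library labelled noncystic female 5. Pla2g5, Defb42 and Lrrc28 in females and Defb42 in males were called under all 22 and all 21 alternatives tried, while Ppp1r3e, Hesx1 and Ifi44l were not called under 1, 10 and 12 of 22 in females, Btc under 2 of 22 in females and 1 of 21 in males, 2900011O08Rik under 2, Gdpd3 under 6 and Perm1 under 7 of 21.

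Many members differed between the sexes in noncystic mice, which the rule compared only within a sex, though these mice served as its controls. Of the 199 members higher in the double knockout, 54 were higher in noncystic females and 2 in males, and of the 98 lower members 42 were higher in noncystic males and 6 in females. Over all genes tested, 15.3% were higher in males and 12.2% higher in females. As shares, 27.1% of the higher members were higher in females and 42.9% of the lower members higher in males. The median male minus female log2 was -0.29 over the higher members and 0.46 over the lower members, against -0.01 over all genes. Without the library labelled noncystic female 5 the counts were 40 and 7 for higher members and 40 and 8 for lower members, and without noncystic male 3, 90 higher members were higher in females.

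The members with the smallest p between the sexes were Gc, the vitamin D-binding protein, with a log2 male minus female of -1.45, and Ces1f, a carboxylesterase, and Acy3, with 2.93 and 1.97. The TPM tables of the sexes were made separately, so levels set across them are a description beside the test on counts. Ces1f stood at medians of 480 TPM in noncystic males and 64.9 in noncystic females, and in Pkd1KO+ciliaKO mice at 328 and 43.7 TPM. Gc had medians of 19.0 and 56.8 TPM in noncystic and 24.6 and 67.2 TPM in Pkd1KO+ciliaKO mice. In the male double knockout Gc reached 194 TPM in its highest mouse and was lost without males 6 and 8, whereas Ces1f was not. Beside this, the sum of 11 male-biased proximal tubule markers was 15538 and 18398 TPM in males 6 and 8 against 49768 to 90357 in the other 7 Pkd1KO+ciliaKO males, 37264 to 95933 in noncystic males and 20837 to 60117 in noncystic females. Kap made up 92.5% of this sum in males and 97.6% in females, so it mostly gives the level of Kap, as does the proximal tubule sum above. Of the 11 genes Gusb alone was called in Pkd1KO+ciliaKO males, lower against both other genotypes. The median log2 over the 11 was -0.72 against noncystic and -0.79 against Pkd1KO males. The sum of 4 female-biased markers was 377 and 346 TPM in males 6 and 8, against 17.7 to 256 TPM in noncystic males and 646 to 1051 TPM in noncystic females. In males Cyp4a14, itself a higher member, made up 58.6% of this sum, so the sum is not separate from the members. No marker of either list was missing, and their part in the members was not tested.

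**Figure D4:**
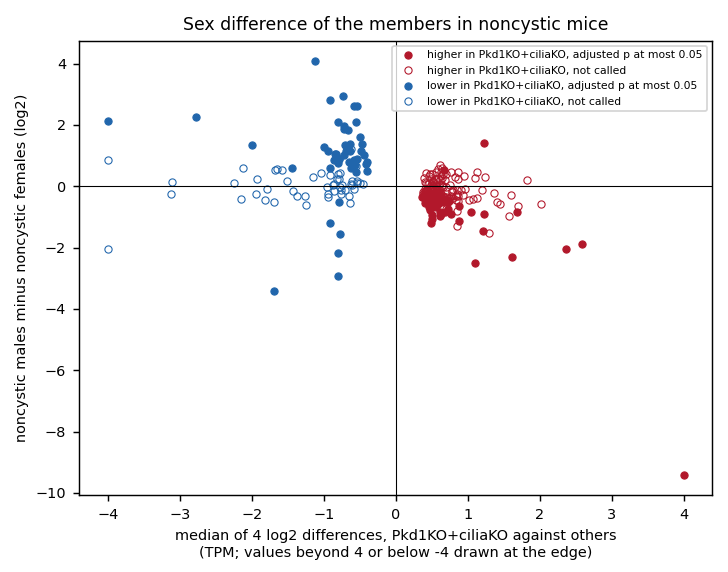
Difference between noncystic males and females (log2, male minus female, edgeR) for each member on the y axis, against the median of the member's 4 log2 changes in the double knockout on the x axis, limited to between -4 and 4; filled points passed the test between the sexes. Filled points of higher members lie mostly below 0 (54 against 2) and those of lower members mostly above 0 (42 against 6). Noncystic mice were also controls of the rule, so nothing is read from this split.

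In the comparisons that chose the members, calls are a description only. Against noncystic males 132 of the 297 members were called, where 8.89% of all coding genes tested were. The counts were 103 against Pkd1KO males, where 3.77% of all genes were called, 62 against noncystic females, where 2.54% were, and 179 against Pkd1KO females, where 11.7% were. The 4 comparisons share mice, and 23 members were called in all of them and 71 in none. Those called in all 4 included Coch, Spink6, Gm9008, Rhox6, Lrmda, Cep85, Abcc6, Vwa1, Hmgn2, Calml4, Lrrc28 and Gdpd3.

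Membership depended on how the level was scaled and on single mice. In TPM the median log2 of all 11723 genes in the 4 comparisons was 0.08, 0.12, 0.12 and 0.09, and in CPM with TMM scaling it was between -0.01 and 0.00. With CPM in place of TPM, 232 genes passed the rule, 77 higher and 155 lower, where TPM gave 199 and 98, and 175 were the same genes, including all 98 lower members. Directions of the higher members are therefore relative to a shift of all genes of about 0.1. With group medians in place of means 286 genes passed and 184 were shared, and without the 2 female libraries 356 passed and 294 were shared. Of the members, 129 (68 higher, 61 lower) were kept whichever single mouse was left out, and 88 (38 higher, 50 lower) under all of these checks. Just inside the threshold lay Acaa2 at 0.3504, Hs6st2 at -0.3518 and Pls3 at 0.3531, and just outside it Wdr72 at 0.34999, Plekhm3 at 0.3497 and Gdf11 at 0.3494.

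**Figure D5:**
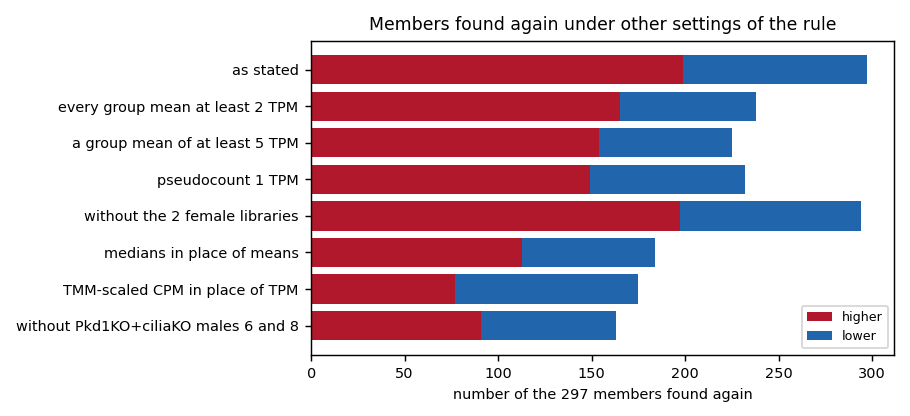
Number of the 297 members found again under the rule as stated and 7 other settings, higher and lower members in separate colours. With TMM CPM 77 of 199 higher and all 98 lower members were found again, and without Pkd1KO+ciliaKO males 6 and 8, 91 higher and 72 lower members.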

How the data were processed

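RNA bound to tagged ribosomes of renal tubules from 45 mice was sequenced. Per the submitters' processing notes, the tools the authors used were fastp 0.20.0 for trimming, STAR 2.7.9 for alignment (genome build GRCm38.p6) and featureCounts 2.0.0 for the counts per gene; strand and multimapping options are not given in the sources used here. The deposited count table holds whole-number counts for 55401 genes, with 80874556 to 132958186 counts per mouse (median 103070359), and replicates were compared: no pair of the 149 pairs within groups differed by less than sampling noise (chi-square per degree of freedom at least 39.7). The deposited TPM tables, 1 per sex, were made by the authors from coding genes that reached 6 counts in 20% or more of the mice of that sex (15991 genes in males, 15968 in females), so tests on TPM were run within a sex.

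Members were found on TPM by the rule given in the report; "at least 2 TPM" was read as at least 1 group mean in each table. Members and gene lists were chosen with earlier results of these data known. Tests were edgeR's quasi-likelihood test (edgeR 4.0.16, R 4.3.3) on the deposited counts, with 1 fit per pair of groups, Benjamini-Hochberg adjusted over all genes tested and called at an adjusted p of at most 0.05. Nothing in the labels says which mice shared a litter. The code was tested on simulated data. Alternatives were DESeq2 1.42.0, limma 3.58.1 on log2(TPM + 1), other filters and scaling, a replicate block and leaving out each mouse; leaving out Pkd1KO+ciliaKO males 6 and 8, and ranges without the 2 female libraries, were chosen after seeing the data. Genes were named by a fixed rule: the targeted genes, the 12 higher and 12 lower members with the largest smallest change, the 5 most abundant of each, members in a list or within 1 Mb of another, the 3 on each side of the threshold, and the 3 smallest p of each contrast the rule did not use. The separated set, immediate early genes and cilium genes outside the lists were named after their values were seen. A few genes that this rule would name are not reported here.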

Additional observations from a re-analysis of the deposited data

Results flagged for a closer look

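In 102 groups of 4 to 10 mice, 26 values lay apart from the rest of their group by Dixon's criterion. For normally distributed values chance meets it in about 1 in 20 groups. TPM is skewed and near 0 in some groups, and some of the genes were named after their values were seen. The 26 are therefore not set against that rate. The library labelled noncystic female 5 gave 6 of them: Kif3a at 6.20 TPM (nearest other mouse 20.8), Slc5a2 at 7.91 (80.6), Pttg1 at 10.5 (64.7), Coch at 6.87 (2.47), Zic2 at 6.76 (0.0231) and the score over members at 0.989 (0.151). The library labelled Pkd1KO+ciliaKO female 6 gave 5: Kif3a at 20.1 TPM (9.02), Slc5a2 at 80.7 (6.52), Pttg1 at 57.6 (10.3), Cep85 at 20.3 (11.9) and Rpl29 at 530 (146). All 11 values lay toward the levels of the other genotype.

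Noncystic male 3 held 17.1 TPM of Pkd1 (11.1) and 778 TPM of Aqp2 (410), noncystic male 4 held 13.3 TPM of mt-Co3 (6.12) and noncystic male 8 held 138 TPM of Fam213b (37.9). Among Pkd1KO males, replicate 4 held 3.70 TPM of Coch (1.71) and 20.9 TPM of Slc5a2 (65.5), replicate 2 held 26.9 TPM of Pvalb (18.1) and replicate 7 held 0.0106 TPM of Zic2 (0). Among Pkd1KO females, replicate 7 held 90.4 TPM of Fam213b (58.1), replicate 4 held 109 TPM of Rpl29 (377) and replicate 5 held 0.0115 TPM of Zic2 (0). In the double knockout, male 2 held 336 TPM of Fos (27.4), male 7 held 0.0643 TPM of Spink6 (0), female 5 held 98.0 TPM of Fos (39.1) and female 3 held 0.182 TPM of Spink6 (0.0624).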

How the results depend on the processing

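The number of genes that passed the rule was 297, and it was 122 at a log2 of 0.5, 647 at 0.25 and 166 without Pkd1KO+ciliaKO males 6 and 8; leaving out single mice gave 214 (without Pkd1KO+ciliaKO male 8) to 384 (without Pkd1KO male 4). Same-numbered mice were not paired: deviations correlated above 0.1 in 6 of 19 female and 5 of 22 male pairs, and 4 and 5 mice correlated best with their own number. Members called in Pkd1KO against noncystic males were 5, with DESeq2 9, with the replicate block 3 and with limma 1 (3 without Pkd1KO male 5 to 10 without noncystic male 3), and in females 8, with DESeq2 15 (6 to 12). For the sexes, single mice gave 93 to 143. In the order double knockout against noncystic males, Pkd1KO males, noncystic females and Pkd1KO females, leaving out single mice gave 113 to 194, 84 to 109, 2 to 112 and 146 to 201 members, 57 to 116, 18 to 31, 0 to 17 and 49 to 80 listed genes, and 63 to 116, 38 to 49, 1 to 39 and 61 to 97 neighbours. The replicate block gave 53, 22 and 110 members in the last 3, 49, 11, 5 and 28 listed genes (80, 30, 10 and 70 without it) and 54, 19, 9 and 44 neighbours; calls lost under a block of unpaired mice say nothing of effect size. Neighbours within 200 kb gave 235, 106, 47 and 251. Against noncystic females, DESeq2 called 149 members, 38 listed genes and 68 neighbours, and without the 2 female libraries the counts were 144, 26 and 48; they were lowest without Pkd1KO+ciliaKO female 2 and highest without the library labelled noncystic female 5. Against Pkd1KO males, DESeq2 called 64 listed genes and 80 neighbours, and 1 fit over 3 genotypes called 51 listed genes. The causes were not tested. Of the counts, 73 of 104 alternatives and 232 of 270 leave-one-out values were within 1.5 times. No single result changed sign, but with TMM CPM the balance of higher to lower members turned from 199 and 98 to 77 and 155.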
